A study of Homo sapiens with 6 samples.

Results

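The time course was measured by mRNA sequencing in MDA-MB-231, an established human cell line with mesenchymal features from a triple-negative breast cancer. Cells were transfected with siControl, a control siRNA, with siNCOA3, aimed at NCOA3, or with siSHC1, aimed at SHC1, and harvested after 24 h or 48 h. NCOA3 is a coactivator that nuclear receptors recruit to switch genes on, and SHC1 is an adaptor that couples receptor kinases to RAS. The question here is how the change between 24 h and 48 h differed when NCOA3 was depleted. It uses 4 of the 6 libraries, siControl and siNCOA3 at both times, and the other 2, siSHC1 at 24 h and at 48 h, serve as a check on the control libraries.

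The measure is a difference of time changes. For each gene the log2 change from 24 h to 48 h after siControl was subtracted from that after siNCOA3, so a negative value means that the transcript climbed less, or dropped more, after siNCOA3. Each siRNA and time has 1 library, so the measure has no replicate check, and what follows describes these libraries without a test. Whether each library had its own culture, and which siRNA sequences, or how many per target, were used, is not stated in the labels. Levels are FPKM, the fragments per kilobase of gene per M fragments, and log2 changes were taken on scaled FPKM plus a pseudocount of 1, which understates the change of weakly expressed genes. Of 20111 genes, 11690 had at least 1 FPKM in at least 2 libraries and were measured.

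The depleted transcript itself kept its level over time. NCOA3 stood at 10.3 FPKM at 24 h and 11.4 FPKM at 48 h after siControl, and at 1.72 and 1.85 FPKM after siNCOA3. That left 15.4% of the siControl level at 24 h and 16.3% at 48 h, so the depletion was about as deep at both times. SHC1, which siNCOA3 does not target, stood at 97.98% and 90.8% of its siControl level. Summed over 13 markers of this line and its class, the level lay between 2887 and 3160 FPKM in all 6 libraries. Markers of luminal breast cells summed to 575 to 932 FPKM, 11 of 17 reaching 1 FPKM somewhere and 2 at 0 throughout. Those of blood and stromal cells summed to 56.6 to 75.2 FPKM, with 4 of 13 reaching 1 FPKM and 3 at 0 throughout. Total FPKM ran from 495518 to 553073, and relative depth, estimated from low values, from 1 to 1.45 times that of siControl at 24 h, the deepest being siControl at 48 h. Read counts were not recovered, so no counting interval is given.

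SCD and INSIG1, which mark this time course, belong to sterol and fatty acid metabolism, which is described first. Cells sense their sterol supply at the endoplasmic reticulum, where INSIG proteins hold SCAP and its cargo, the SREBP transcription factors. When sterols run low, SCAP escorts SREBP to the Golgi, proteases release the active factor, and it switches on its own genes, INSIG1, the cholesterol pathway and lipogenic enzymes such as SCD. SREBP binds sterol regulatory elements close to gene starts, usually beside CCAAT boxes that bind NF-Y.

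The promoters of SCD and INSIG1, the 2 genes that mark the time course, and of SREBF2, which encodes SREBP-2, are shown. SCD and INSIG1 follow the course described next, and SREBF2 follows it less far, with a difference of -0.48 that does not pass 1.5-fold. Promoters of genes that differed more, such as HMGCS1 and SREBF1, are not shown. Each is the 250 bases before the gene's start in RefSeq (GRCh38.p14, plus strand), with the motifs found on either strand in capitals. The motifs searched were TCACNCCAC, the core of a classical sterol regulatory element, and CCAAT, which reads ATTGG on the other strand.
SCD, chr10:100346983-100347232: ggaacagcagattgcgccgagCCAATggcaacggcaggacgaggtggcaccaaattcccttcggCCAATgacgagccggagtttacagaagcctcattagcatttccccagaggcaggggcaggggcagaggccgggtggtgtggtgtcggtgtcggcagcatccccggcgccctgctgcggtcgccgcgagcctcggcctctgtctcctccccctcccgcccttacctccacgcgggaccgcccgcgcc
INSIG1, chr7:155297628-155297877: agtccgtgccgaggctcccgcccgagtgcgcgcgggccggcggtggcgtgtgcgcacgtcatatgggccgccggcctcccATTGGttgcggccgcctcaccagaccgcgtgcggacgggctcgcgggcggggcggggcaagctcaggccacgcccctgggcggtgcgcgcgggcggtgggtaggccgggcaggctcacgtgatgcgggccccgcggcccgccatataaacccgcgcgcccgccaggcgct
SREBF2, chr22:41832855-41833104: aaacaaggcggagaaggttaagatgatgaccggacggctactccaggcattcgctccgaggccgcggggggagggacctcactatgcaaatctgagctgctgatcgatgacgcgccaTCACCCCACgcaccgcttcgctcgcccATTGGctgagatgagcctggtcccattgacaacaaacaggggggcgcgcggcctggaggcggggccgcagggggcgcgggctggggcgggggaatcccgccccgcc
SCD holds CCAAT 229 and 186 bases before the start, and INSIG1 holds ATTGG 170 bases before it. SREBF2 holds TCACCCCAC 133 bases before the start and ATTGG 106 bases before it. Over windows of 300 bases, from 250 before to 50 after the start, 68% of the 50 sterol and fatty acid genes with a RefSeq promoter held CCAAT, against 39.7% of all 27305 promoters. The sterol motif was in 3 of the 50, ACSL1, MID1IP1 and SREBF2, and in 1.39% of all promoters. These matches are letters in a window, not measured binding.

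SCD, the desaturase that turns stearate into oleate, stood at 54.4 FPKM at 24 h and 159.7 FPKM at 48 h after siControl. After siNCOA3 it stood at 66.3 and 67.0 FPKM, and after siSHC1 at 93.4 and 259 FPKM. The siNCOA3 libraries were thus level over time, while both others were far higher at 48 h, by 2.70-fold after siControl and 2.80-fold after siSHC1 on the scale of scaled FPKM plus 1. The difference of time changes was -1.40 on the log2 scale for siNCOA3 and 0.05 for siSHC1, both against siControl. INSIG1, which retains SCAP in the endoplasmic reticulum, went from 33.7 to 94.6 FPKM after siControl, from 38.8 to 44.4 FPKM after siNCOA3, and from 80.6 to 196 FPKM after siSHC1. Its difference was -1.15 for siNCOA3 and -0.07 for siSHC1. At 24 h the siNCOA3 and siControl values of both genes lay close together, and the gap opened at 48 h. As bulk RNA was measured, fewer cells expressing a gene and less RNA per cell cannot be told apart.

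**Figure D1:**
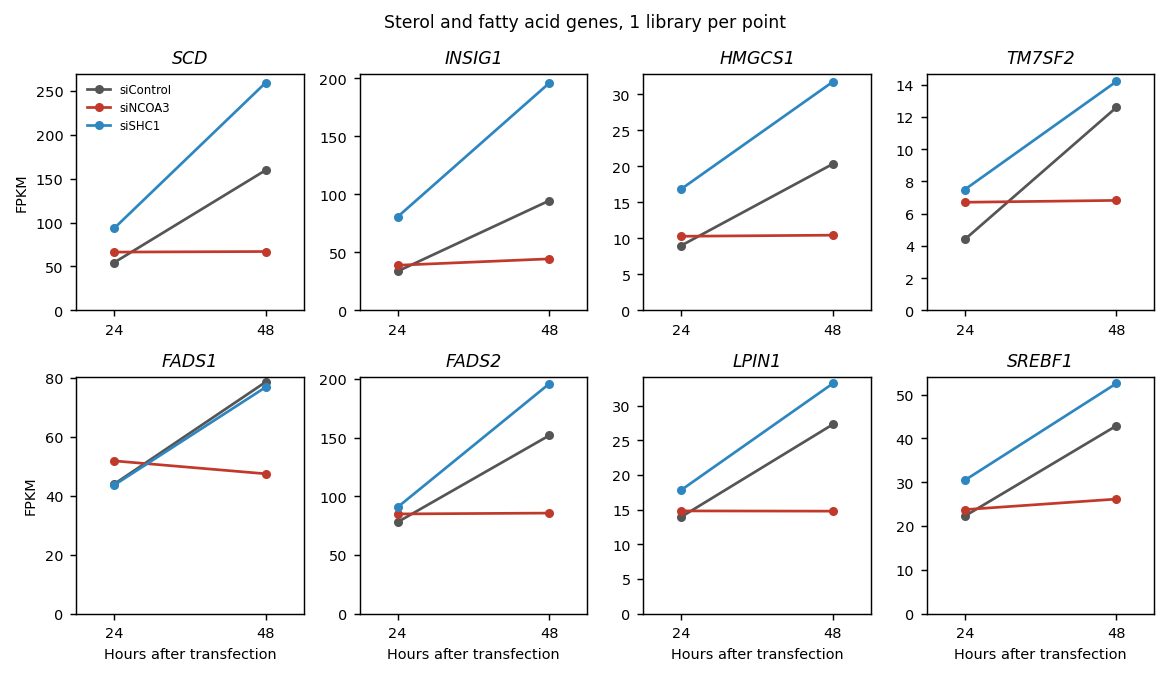
FPKM (vertical axis, from 0) of 8 sterol and fatty acid genes against hours after transfection, with 1 point per library and a line per siRNA. After siNCOA3 each gene is nearly level, SCD at 66.3 and 67.0 FPKM, while after siControl and siSHC1 each is higher at 48 h than at 24 h.

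Across the cholesterol synthesis list the median difference was -0.34, against 0.002 over all 11690 genes. All 21 members were measured, and 2 lay above 0, where 50.2% of all measured genes lay. Of the 19 below 0, 3 were at least 1.5-fold lower, which 3.4% of all measured genes were. The median time change of the members was 0.33 after siControl, 0.07 after siNCOA3 and 0.74 after siSHC1. The siSHC1 difference against siControl thus had a median of 0.31, so the check libraries also departed from siControl, in the other direction. The siNCOA3 change lay at least 1.5-fold to one side of both others in 3 members, against 2.23% of all measured genes. The siSHC1 change did so in 3, against 1.46%. In 18 of the 21 the siNCOA3 change was the smallest of the 3 siRNAs, as it was in 4109 of all 11690 genes.

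At the entry to the pathway, HMGCS1, which makes HMG-CoA, had 8.998 and 20.3 FPKM after siControl, 10.3 and 10.4 FPKM after siNCOA3, and 16.9 and 31.8 FPKM after siSHC1. Its difference was -0.96, and the siNCOA3 change lay at least 1.5-fold below those of siControl and siSHC1. ACAT2, the thiolase before it, differed by -0.16. Between mevalonate and farnesyl pyrophosphate, IDI1, the isomerase, went from 18.9 to 30.9 FPKM after siControl and from 22.8 to 22.8 FPKM after siNCOA3, a difference of -0.56. FDPS, MVK and MVD differed by -0.26, -0.21 and -0.07, and PMVK by 0.09.

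The squalene steps showed the same order. FDFT1, which makes squalene, differed by -0.35, SQLE, which oxidises it, by -0.22, and LSS, which closes it to lanosterol, by -0.50. LSS had 34.2 and 56.0 FPKM after siControl against 42.5 and 44.7 FPKM after siNCOA3. Of the 10 enzymes from lanosterol to cholesterol, 9 lay below 0. TM7SF2, a sterol reductase, stood furthest, with 4.40 and 12.6 FPKM after siControl, 6.70 and 6.82 FPKM after siNCOA3, and 7.49 and 14.2 FPKM after siSHC1, a difference of -1.20. MSMO1, HSD17B7, CYP51A1, DHCR7 and NSDHL lay between -0.46 and -0.34. For CYP51A1 and HSD17B7 it was the larger siSHC1 change that stood apart by 1.5-fold, and the siControl and siNCOA3 changes lay nearer each other. SC5D, at 0.01, and EBP, at -0.02, lay near 0.

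Among 17 genes of sterol sensing and uptake the median was -0.20. Of these, 4 were at least 1.5-fold lower, against 3.4% of all measured genes. None was as far higher, against 2.44%, a share that gives few members or none in a list this small. SREBF1, which encodes SREBP-1, had 22.2 and 42.9 FPKM after siControl, 23.7 and 26.1 FPKM after siNCOA3, and 30.4 and 52.6 FPKM after siSHC1, a difference of -0.66. SREBF2 had 23.5 and 36.9 FPKM after siControl and 26.5 and 27.1 FPKM after siNCOA3, a difference of -0.48. Both factors were thus nearly level after siNCOA3. The escort SCAP, at 0.10, and the proteases MBTPS1, at -0.43, and MBTPS2, at 0.10, did not pass 1.5-fold.

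STARD4, a carrier of sterol between membranes, had 13.7 and 21.998 FPKM after siControl, 16.1 and 15.05 FPKM after siNCOA3, and 18.8 and 30.2 FPKM after siSHC1, a difference of -0.63. Genes of the lysosomal exit of cholesterol did not share this: NPC1, at 0.30, had the highest value of the list, and NPC2 was at -0.11.

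In fatty acid synthesis 24 of 25 members were measured, THRSP being at or near 0. The median was -0.23, and 8 lay above 0, where 50.2% of all measured genes lay. Of the 16 below 0, 4 were at least 1.5-fold lower, against 3.4% of all measured genes. These were FADS2, FADS1, LPIN1 and SCD, which was given as a mark of this time course. FADS1 and FADS2 desaturate polyunsaturated chains. FADS1 had 43.9 and 78.6 FPKM after siControl, 51.8 and 47.4 FPKM after siNCOA3, and 43.6 and 76.9 FPKM after siSHC1, a difference of -0.83. FADS2 had 78.0 and 152 FPKM after siControl, 84.9 and 85.6 FPKM after siNCOA3, and 90.7 and 196 FPKM after siSHC1, a difference of -0.82. LPIN1, a phosphatidate phosphatase, differed by -0.81. The desaturases thus had the lowest median of the 5 roles in this list, -0.82 over 4 genes.

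FASN, which builds palmitate, had 37.8 and 64.9 FPKM after siControl, 42.6 and 45.9 FPKM after siNCOA3, and 41.9 and 91.2 FPKM after siSHC1, a difference of -0.54. ACSS2, which makes acetyl-CoA from acetate, also differed by -0.54. ACLY and ACACA, at -0.27 and -0.08, differed less, and the 6 elongation genes had a median of 0.01. Over the 3 lists, 62 genes were measured and the median difference was -0.26. Above 0 lay 17, where 50.2% of all measured genes lay. Of the 45 below 0, 11 were at least 1.5-fold lower, against 3.4% of all measured genes. The 11 include SCD and INSIG1, which mark this time course. In each of the 11 the siNCOA3 change also stood at least 1.5-fold from that of siSHC1. No other of the 62 could stand so far from both, as the pattern requires 1.5-fold from siControl. Of all measured genes, 5.83% differed by 1.5-fold from siControl either way and 2.23% stood so from both. Over all 62 the median gap between siNCOA3 and siControl was 0.01 at 24 h and -0.24 at 48 h.

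**Figure D2:**
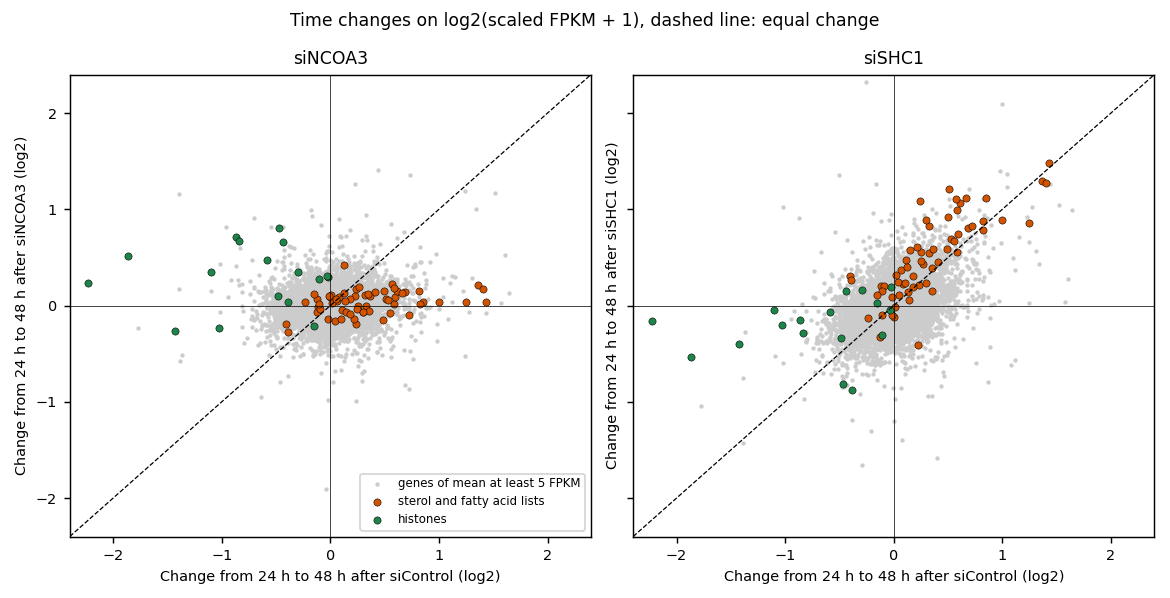
Change from 24 h to 48 h after siControl (horizontal axis, log2) against that after siNCOA3 (left) or siSHC1 (right), with 1 point per gene for 8913 genes of mean at least 5 FPKM and for the measured members of the lists in colour; 4 genes on the left and 5 on the right lie outside the axes. The sterol and fatty acid genes spread along the siControl axis but lie near 0 for siNCOA3, and lie mostly along or above the dashed line of equal change for siSHC1.

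Target genes of LXR, the receptor that senses oxysterols, gave a median of -0.05 over 8 measured members. Besides SREBF1, which belongs to both lists, the lowest was ABCA1, a cholesterol exporter, at -0.47. The 23 measured nuclear receptors, at a median of -0.05, and the 30 measured coactivators and partners of NCOA3, at -0.08, held no member past 1.5-fold. Of all measured genes 5.83% passed it either way, a share that gives few members in lists this small.

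Over the whole transcriptome the siNCOA3 libraries changed less with time than the others. The SD of the time change over 11690 genes was 0.28 after siControl, 0.20 after siNCOA3 and 0.29 after siSHC1. At least 1.5-fold higher at 48 h were 301 genes after siControl (2.57%), 107 after siNCOA3 (0.915%) and 330 after siSHC1 (2.82%). At least 1.5-fold lower were 151 genes (1.29%), 81 genes (0.693%) and 167 genes (1.43%). The order held from weakly to highly expressed genes. At under 5 FPKM the median size of the change was 0.19 after siControl, 0.13 after siNCOA3 and 0.19 after siSHC1, and at 100 FPKM or more (799 genes) it was 0.11, 0.05 and 0.12.

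Genes picked by the siSHC1 libraries alone gave the same order. Of the 330 genes at least 1.5-fold higher at 48 h after siSHC1, 101 were so after siControl and 19 after siNCOA3. Of all measured genes 2.57% and 0.915% were so. The 330 include 24 of the 62 measured genes of the 3 lipid lists. Their median change was 0.38 after siControl and 0.09 after siNCOA3. The median gap between siNCOA3 and siControl in these genes was 0.03 at 24 h and -0.25 at 48 h. Of the 167 at least 1.5-fold lower after siSHC1, 24 were so after siControl and 15 after siNCOA3, with medians of -0.20 and -0.01. Of all measured genes 1.29% and 0.693% were so, so the smaller siNCOA3 counts go with its smaller share over all genes. The level course of lipid genes after siNCOA3 was thus accompanied by smaller time changes in many other genes, and whether it is particular to lipid genes was not tested.

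**Figure D3:**
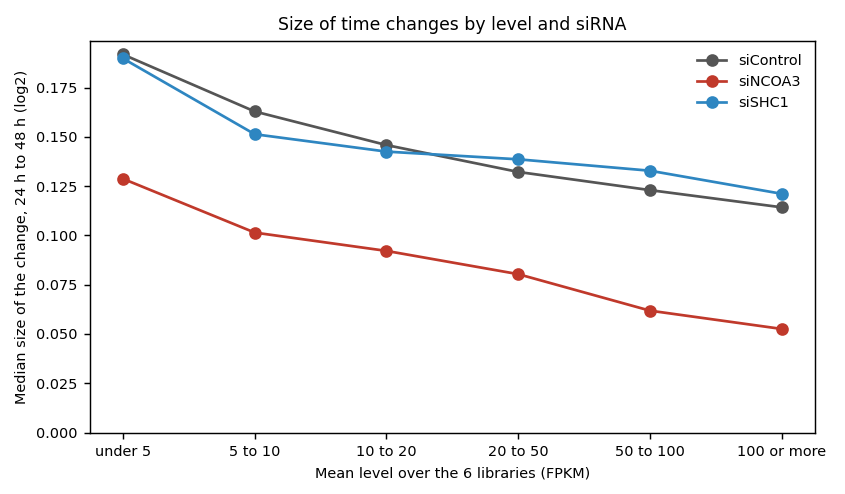
Median size of the change from 24 h to 48 h (vertical axis, log2, from 0) in 6 classes of mean level (horizontal axis, FPKM) for each siRNA. The siNCOA3 line lies below both others in every class, at 0.05 against 0.11 and 0.12 for genes of 100 FPKM or more.

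Counted gene by gene, 66 of 11690 genes had a difference of at least 2-fold on the higher side (0.565%) and 84 on the lower side (0.719%). Without scaling these were 47 and 120, with the median of all genes at -0.11. The siSHC1 check against the same siControl libraries gave 60 higher (0.513%) and 69 lower (0.59%), so a count of this size was not peculiar to siNCOA3. With a mean of at least 5 FPKM, 56 of 8913 genes passed 2-fold (0.628%), 26 higher and 30 lower. In 37 of these 56 it was the siNCOA3 change that stood apart from both others by at least 1.5-fold, in 17 it was the siControl change, and 2 could not be separated. The 56 were picked for a gap between siNCOA3 and siControl, so either siNCOA3 or siControl had to stand apart in most. Over the 8913 genes siNCOA3 stood apart in 1.41% and siControl in 0.797%. At the lower threshold MDM4, at -1.02, and PHF20, at -1.0004, lay just inside, with SLC1A4, at -0.996, and C15orf40, at -0.99, just outside. At the upper threshold CABLES1, at 1.003, and WDR74, at 1.03, lay inside, with AP1M2, at 0.995, and OSTM1, at 0.9999, outside.

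Of the 15 genes furthest on the lower side, 12 had siNCOA3 apart. Besides SCD and TM7SF2 these include CFB, complement factor B, with 5.41 and 20.3 FPKM after siControl, 8.31 and 9.08 FPKM after siNCOA3, and 9.70 and 20.02 FPKM after siSHC1, a difference of -1.51. CA12, a membrane carbonic anhydrase, had 12.4 and 33.6 FPKM after siControl, 18.3 and 17.2 FPKM after siNCOA3, and 24.6 and 50.3 FPKM after siSHC1, a difference of -1.34. SPINK4, a protease inhibitor, had 5.42 and 17.5 FPKM after siControl, 10.1 and 9.39 FPKM after siNCOA3, and 17.5 and 42.9 FPKM after siSHC1, a difference of -1.51. All 3 were nearly level after siNCOA3, and their 48 h value was at least 2 times the 24 h value after each other siRNA.

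In other genes the siNCOA3 value was high at 24 h and lower at 48 h. ULK1, the kinase that starts autophagy, had 11.9 and 6.15 FPKM after siNCOA3, 5.69 and 10.5 FPKM after siControl, and 6.08 and 11.1 FPKM after siSHC1, a difference of -1.52. C2orf43, which encodes a lipid droplet hydrolase also known as LDAH, had 6.82 and 3.23 FPKM after siNCOA3, 3.39 and 6.66 FPKM after siControl, and 5.06 and 5.40 FPKM after siSHC1, a difference of -1.59. PGPEP1, a pyroglutamyl peptidase, differed by -1.32, with 25.4 and 16.7 FPKM after siNCOA3. CATSPER2, a sperm calcium channel subunit, differed by -1.77. For IGF1R, the IGF-1 receptor, the siControl libraries stood apart: it had 4.28 and 10.9 FPKM after siControl, 9.07 and 8.02 FPKM after siNCOA3, and 10.7 and 6.53 FPKM after siSHC1. RPL17-C18orf32, ZNF688 and COMMD3-BMI1, between -1.55 and -1.21, and CATSPER2 overlap other genes or read-through models in RefSeq, so reads can be split between them and their values are uncertain. RP4-583P15.14, at -1.87, and AL021546.6, at -1.34, were not matched to RefSeq by symbol, so overlap was not checked.

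On the higher side 10 of the 15 had siNCOA3 apart. ETV6, an ETS-family repressor, had 6.83 and 16.3 FPKM after siNCOA3, 33.6 and 13.1 FPKM after siControl, and 19.6 and 6.56 FPKM after siSHC1, a difference of 2.55. The siNCOA3 library was thus the lowest of the 3 at 24 h and the highest at 48 h. HAGHL, related to hydroxyacylglutathione hydrolase, stood furthest at 3.001, with 10.7 and 67.9 FPKM after siNCOA3, 10.5 and 8.13 FPKM after siControl, and 46.9 and 29.1 FPKM after siSHC1. RRAD, a small GTPase, had 11.1 and 21.5 FPKM after siNCOA3, 14.8 and 9.32 FPKM after siControl, and 22.3 and 16.9 FPKM after siSHC1, a difference of 1.62.

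IL24, a cytokine of the IL-10 family, and ANGPTL4, an inhibitor of lipoprotein lipase, differed by 1.57 and 1.54. ANGPTL4 had 14.3 and 3.78 FPKM after siControl, 14.8 and 12.2 FPKM after siNCOA3, and 32.0 and 14.8 FPKM after siSHC1. It was thus far lower at 48 h after the other siRNAs and little lower after siNCOA3. LYRM7, RFX2 and SMIM19 differed by 1.42, 1.25 and 1.25. LUZP6, AC018867.2, HMSD, DEPDC5 and FAM220A, between 1.28 and 1.96, had the siControl change apart, and against siSHC1 in place of siControl all but DEPDC5 turned negative. HMSD, IL24, SMIM19, FAM220A and DEPDC5 overlap other loci in RefSeq and are uncertain. LUZP6 and AC018867.2 were not matched to RefSeq by symbol, so overlap was not checked. Among the other named genes INSIG1, CA12, IGF1R, ETV6, RFX2, NCOA3 and SHC1 also overlap RefSeq loci, and the share of reads from those is not known.

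Replication-dependent histones, made in S phase and mostly without a poly(A) tail, had the highest list median, 1.05 over 17 measured of 25. The size of this median depended on low values: it was 0.61 without the filter on them and 0.48 with a pseudocount of 5. Of the 17, 16 lay above 0 and 11 were at least 1.5-fold higher, against 2.44% of all measured genes. HIST1H2BC had 6.69 and 3.49 FPKM after siControl, 3.91 and 6.97 FPKM after siNCOA3, and 5.63 and 4.89 FPKM after siSHC1, a difference of 1.58. HIST1H2BJ had 12.2 and 6.86 FPKM after siControl, 6.90 and 11.4 FPKM after siNCOA3, and 10.4 and 8.25 FPKM after siSHC1, a difference of 1.51. In both the siControl and siNCOA3 libraries exchanged places between 24 h and 48 h.

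HIST1H3B had 7.84 FPKM in siControl at 24 h and between 1.26 and 2.36 FPKM in the other 5 libraries. HIST1H4H, at 1.45, HIST1H4C, at 1.16, and HIST1H2AC, at 1.09, followed. The siSHC1 libraries shared some of this difference: the siSHC1 difference against siControl had a median of 0.51, and in 5 members the siControl change stood apart, which it did in 1.39% of all measured genes, against 4 with siNCOA3 apart. With siSHC1 as the reference the median was 0.43. Histone copies are near identical, so reads can be split between them, and these values are uncertain. S-phase and mitotic genes did not go along: 48 genes of G1/S and replication had a median of 0.01 and 49 of G2/M and mitosis 0.07. None of these passed 1.5-fold, which 5.83% of all measured genes did either way.

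**Figure D4:**
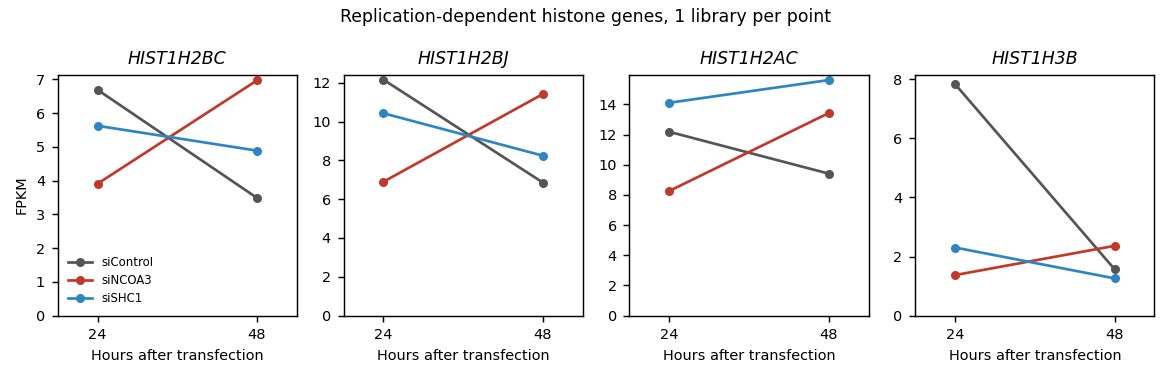
FPKM (vertical axis, from 0) of 4 histone genes against hours after transfection, with 1 point per library and a line per siRNA. HIST1H2BC, HIST1H2BJ and HIST1H2AC are higher at 48 h than at 24 h after siNCOA3 and lower after siControl, and HIST1H3B is highest in siControl at 24 h, at 7.84 FPKM.

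Genes of hypoxia and glycolysis, the targets of HIF, had a median of -0.22 over 41 members, 36 below 0. At least 1.5-fold lower were 5 members, against 3.4% of all measured genes, and 1 was higher, ANGPTL4, against 2.44%. ALDOC, a glycolytic aldolase, had 4.28 and 10.5 FPKM after siControl, 5.54 and 5.85 FPKM after siNCOA3, and 10.6 and 25.9 FPKM after siSHC1, a difference of -0.96. CA9, a carbonic anhydrase induced in hypoxia, had 7.19 and 14.4 FPKM after siControl, 10.4 and 10.96 FPKM after siNCOA3, and 20.1 and 43.8 FPKM after siSHC1, a difference of -0.73. EGLN3, a HIF prolyl hydroxylase, differed by -0.74, and NDRG1 by -0.49. For CA9 and ALDOC both siNCOA3 values lay between the siControl values, and the median gap to siControl over the list was 0.11 at 24 h and -0.13 at 48 h.

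The unfolded protein and ATF4 response had a median of -0.25 over 45 members, with 34 below 0. Of the members 5 were at least 1.5-fold lower and 2 higher, against 3.4% and 2.44% of all measured genes. ASNS, asparagine synthetase, had 21.2 and 42.7 FPKM after siControl, 17.6 and 17.3 FPKM after siNCOA3, and 25.3 and 32.6 FPKM after siSHC1, a difference of -0.88. DDIT4, an inhibitor of mTORC1, differed by -0.80, PSAT1, of serine synthesis, by -0.76, and CHAC1, a glutathione-degrading enzyme, by -0.61. For PSAT1 and CHAC1 the siControl change was the one apart. With siSHC1 as reference ASNS was at -0.37, short of 1.5-fold, and DDIT4 at -0.59, just past it. With siSHC1 as reference the list median was -0.08. The 24 ATF4 members went from a median of -0.25 to 0.02 with that reference. The 21 endoplasmic reticulum members went from -0.23 to -0.19, so it was the ATF4 part that depended on the siControl libraries. The 2 members on the higher side were PPP1R15A, at 0.83, which ends the response, and SLC7A11, the cystine carrier, at 0.62, both outside the rule for naming and given because they were the only ones.

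Other stress lists did not lean this way. Of 26 measured NRF2 targets, which defend against oxidants, 3 were at least 1.5-fold higher, against 2.44% of all measured genes, at a median of 0.12: OSGIN1 at 1.03, GCLC, of glutathione synthesis, at 0.90, and SLC7A11. GCLC had 19.1 and 15.5 FPKM after siControl and 13.8 and 19.96 FPKM after siNCOA3. Without scaling this median was -0.01, against -0.11 for all genes. The 16 measured heat shock genes had a median of 0.15.

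Glucocorticoid receptor targets, taken because NCOA3 can serve that receptor, had a median of 0.34 over 18 members. Of these, 7 were at least 1.5-fold higher, against 2.44% of all measured genes, and none lower, against 3.4%. Besides ANGPTL4 they include SGK1, a kinase, with 8.05 and 6.10 FPKM after siControl, 8.97 and 11.7 FPKM after siNCOA3, and 6.38 and 3.39 FPKM after siSHC1, a difference of 0.81. The metallothioneins MT1E, MT1X and MT2A, which bind zinc and copper, differed by 0.79, 0.61 and 0.60. MT2A had 484 and 384 FPKM after siControl, 428 and 472 FPKM after siNCOA3, and 274 and 191 FPKM after siSHC1. The textbook targets TSC22D3 and PER1 lay on the other side, at -0.46 and -0.52, and FKBP5 was at -0.16, so the list did not move as one.

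Interferon response genes had a median of -0.15 over 47 members, with 35 below 0 and 3 at least 1.5-fold lower, against 3.4% of all measured genes: OAS1 at -0.90, TRIM22 at -0.82 and IFI35 at -0.64. In none of the 47 did the siNCOA3 change stand apart from both others, which it did in only 2.23% of all measured genes. The siNCOA3 change was the lowest of the 3 siRNAs in 30 members, as it was in 4109 of all 11690 measured genes. Against siSHC1 the list median was -0.28. IFI27, the most abundant of those named, had 223 and 395 FPKM after siControl and 274 and 302 FPKM after siNCOA3. NF-kB targets and cytokines, at a median of -0.15 over 23 members, turned to 0.24 against siSHC1. Their lowest, NFKBIZ, a nuclear IkB protein, differed by -0.81 and had 6.17 and 15.6 FPKM after siControl, 5.49 and 6.95 FPKM after siNCOA3, and 7.41 and 4.61 FPKM after siSHC1, the siControl change being apart.

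In other large lists few members or none passed 1.5-fold, which 5.83% of all measured genes did either way. The 76 cytosolic ribosomal protein genes had a median of 0.09, with none past 1.5-fold. Small as these values were, 67 of the 76 lay above 0, where 50.2% of all measured genes lay. In 63 the siNCOA3 change was the highest of the 3 siRNAs, as it was in 3924 of all 11690 measured genes. Without scaling the median of the 76 was -0.04, against -0.11 for all genes. The 13 mitochondrially encoded transcripts had a median of -0.02, with none past 1.5-fold. The 59 nuclear genes of oxidative phosphorylation had a median of 0.03, with 1 member past 1.5-fold.

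A list of 12 genes was chosen on these libraries for a difference between siNCOA3 and siControl at both times, and so says nothing independent of its direction. Their median gap was -0.99 at 24 h and -1.06 at 48 h, and the median difference of time changes was -0.04. RPN2, a subunit of oligosaccharyltransferase, had 213 and 273 FPKM after siControl and 59.9 and 57.3 FPKM after siNCOA3, a difference of -0.30. The exception was NGFR, the p75 neurotrophin receptor, with 31.6 and 54.9 FPKM after siControl, 16.5 and 16.6 FPKM after siNCOA3, and 54.9 and 63.0 FPKM after siSHC1, a difference of -0.65.

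**Figure D5:**
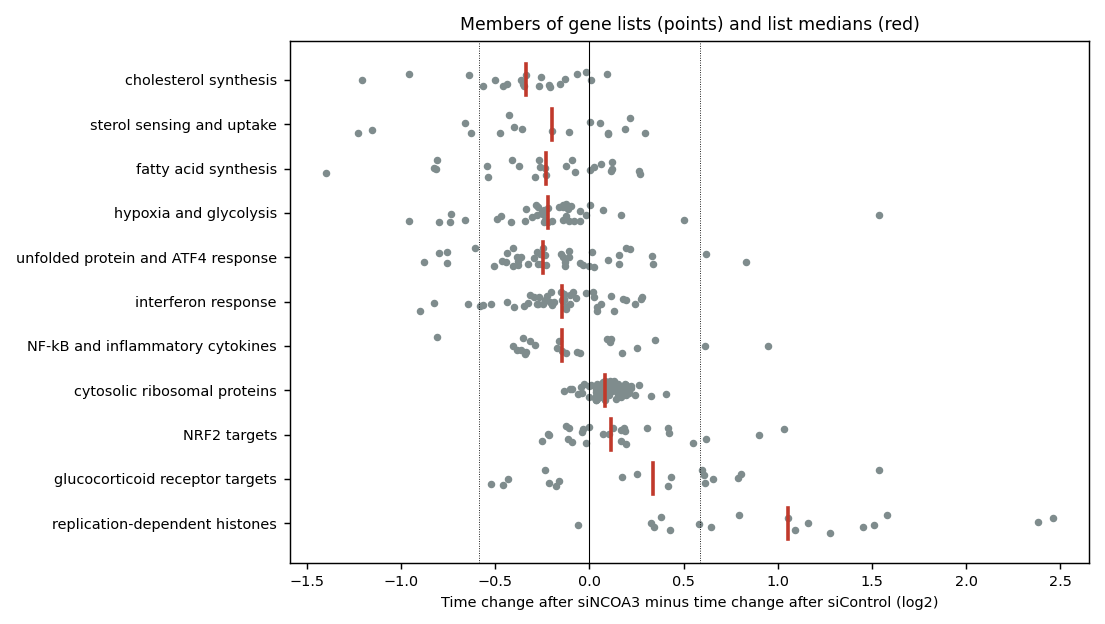
Time change after siNCOA3 minus that after siControl (horizontal axis, log2) for each measured member of 11 gene lists, with the list median as a red bar and dotted lines at 1.5-fold. The cholesterol synthesis median lies at -0.34, the histone median at 1.05 and that of ribosomal proteins at 0.09.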

How the data were processed

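The values the authors deposited are FPKM per gene and library, as the values themselves show, although the analysis had been planned for counts. STAR, Cufflinks and DESeq2 with the build hg19 are named in the submitters' processing notes, with no roles or versions. Per the labels' protocols, RNA came from Trizol extraction and a stranded mRNA kit. The sources used here do not give the annotation or the strand setting of the quantification.

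Each library was divided by its median ratio to the gene-wise geometric mean, taken over 11042 genes with at least 1 FPKM in all 6 libraries (factors 0.947 to 1.02). Genes with at least 1 scaled FPKM in at least 2 libraries were kept, and log2(scaled FPKM + 1) was used. A siRNA-by-time term has 0 residual degrees of freedom here, so no test was made, and genes were counted past 2-fold, or 1.5-fold for lists. A siRNA is called apart where its time change lies at least 1.5-fold to one side of both others. Checked on simulated data, the calculation returned differences of the right sign. The software was pandas 2.3.3 and numpy 2.4.6 under Python 3.11.15, with matplotlib 3.10.9 for plots.

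The comparison, the 29 gene lists (838 symbols, 836 matched, 761 measured) and the markers were chosen with earlier results of these data known. The text names NCOA3, SHC1, SCD, INSIG1, the 15 furthest genes in each direction among those of mean at least 5 FPKM over the 4 libraries, up to 6 members of each list discussed in the direction of its median (mean at least 2 FPKM), and members of the 3 lipid lists. Some members, which are counted in their lists, are not reported here by name. Genes just inside and outside a threshold and single exceptions, ABCA1, FKBP5, TSC22D3, PER1, PPP1R15A, RPN2 and NGFR, stand outside that rule and were chosen after their values were seen. Promoters came from RefSeq (GRCh38.p14), matched by symbol for 50 lipid genes. Alternatives were no scaling, equal totals, pseudocounts of 0.1 and 5, other filters and siSHC1 as reference. The mean of siControl and siSHC1 as reference was added after seeing the data.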

Additional observations from a re-analysis of the deposited data

Results flagged for a closer look

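In 8 of the named genes the change from 24 h to 48 h was at least 1.5-fold in one direction after siControl and at least 1.5-fold in the other after siNCOA3, and this difference was not tested, as each siRNA and time has 1 library. On the lower side these were C2orf43 (-1.59) and ULK1 (-1.52). On the higher side these were ETV6 (2.55), AC018867.2 (1.77), RRAD (1.62), HIST1H2BC (1.58), HIST1H2BJ (1.51) and LYRM7 (1.42). For 7 of the 8 the siNCOA3 change also stood apart from that of siSHC1, and for AC018867.2, which is listed at 0 in siSHC1 at 24 h, the siControl change stood apart.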

How the results depend on the processing

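No paired analysis was possible because each siRNA and time has 1 library and no test was made. The 150 genes past 2-fold became 327 with a pseudocount of 0.1 (138 higher, 189 lower), 28 with a pseudocount of 5 (13 and 15) and 58 with a mean of at least 5 FPKM as the filter (28 and 30). With the mean of siControl and siSHC1 as reference, chosen after seeing the data, 43 were higher. With siSHC1 as reference 147 genes passed, of which 57 (38% of the 150) were shared. That reference gave list medians of -0.71 for cholesterol synthesis, -0.40 for sterol sensing, 0.24 for NF-kB, which changed sign, -0.079 for the unfolded protein response, 0.43 for histones, -0.28 for interferon and 0.14 for glucocorticoid targets. Without scaling the median of all genes moved to -0.11, and those of sterol sensing to -0.32, NF-kB to -0.26, hypoxia to -0.34, interferon to -0.26 and NRF2 to -0.01 (-0.0056), which changed sign. Without a filter NF-kB was at -0.05 (-0.045) and histones at 0.61. A pseudocount of 5 gave 0.48 for histones and 0.21 for glucocorticoid targets. The mean reference gave 0.67 for histones and 0.03 (0.035) for NF-kB, which changed sign. Among named genes siSHC1 as reference changed the sign of AC018867.2 (-2.13), CHAC1 (0.12), FAM220A (-0.50), HIST1H1E (-0.028), HMSD (-0.59), IGF1R (0.48), LUZP6 (-0.88) and NFKBIZ (0.88). The mean reference changed that of AC018867.2 (-0.18) and NFKBIZ (0.03). The cause was not tested. Equal totals moved none of the counts, list medians or named genes by more than 1.5 times. With 1 library per siRNA and time, no library can be left out, and a library that stands apart cannot be told apart from its condition.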
